A study of Rattus norvegicus with 6 samples.

Results

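The RNA described here came from 318 gene models that the authors typed as long noncoding RNA (lncRNA) genes outside the annotation. They were selected on their own counts, as the models of that type with a sum of at least 60 over the 6 samples, out of 637 models of the type and 24360 gene rows in all. The samples were H9c2, a myoblast line derived from embryonic rat heart that the labels call embryonic cardiomyocytes of wild-type genotype. Ctrl (n = 3) carried the treatment label NC, and Rb2 (n = 3) was given ginsenoside Rb2, a saponin of ginseng. One protocol text covers both groups. It gives Rb2 for 48 h, then 4 to 6 h without oxygen and glucose, then 12 h with both restored, and it does not state which of these steps Ctrl had. No label says that the 3 samples of a group were separate cultures, and the p-values below cover only the spread among these libraries, part of which may be technical. All came from 1 immortal line.

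Long noncoding RNAs are transcribed and often spliced and polyadenylated like messenger RNAs but are not known to encode a protein. Some act in the nucleus on chromatin or on splicing, some act in the cytoplasm by binding proteins or microRNAs, and for many it is the act of transcription near another gene that has been linked to a function. As a class they are usually less abundant than messenger RNAs. A model outside the annotation is generally a transcript structure assembled from reads, and a lncRNA type for it usually rests on a prediction that it lacks a coding sequence. How the type of the models here was set is not given in the sources used here. The files pair these models with no symbol, so each is named by its identifier, and no function is stated for any of them.

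Total counts ran from 5193077 to 8793390 per sample, with Ctrl replicate 1 the deepest. A count of 3, the limit that a count of 0 allows, was worth between 0.341 and 0.578 CPM (counts per 1000000 counts of the library), for counting error only. Over the 318 models the chi-square per degree of freedom between pairs of samples was 3.56 to 8.53 for pairs with Ctrl replicate 1 and 1.44 to 4.40 for the others, so no pair agreed within sampling noise. This measure grows with depth. Of 12 cardiomyocyte markers, 10 had a row, and their summed level was 58.7 to 78.9 CPM in Ctrl and 57.0 to 66.4 CPM in Rb2, with cardiac actin (Actc1) at 0. The 7 skeletal myoblast markers with a row summed to 34.9 to 46.6 and 42.1 to 46.7 CPM, and 8 fibroblast or smooth muscle markers to 6820 to 7191 and 6781 to 7206 CPM. Only 4 cardiomyocyte, 4 skeletal myoblast and 8 fibroblast or smooth muscle markers were tested, and none of them was called. Over all rows tested 2.7% were called, so the lack of a call among so few markers says little about a difference between the groups. A call compares Rb2 with Ctrl and does not bear on what the cells are.

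The 318 models together took about 1% of all counts, and 1 model took more than all others combined. They made up 1.00% ± 0.035 of a Ctrl library and 1.02% ± 0.0071 of an Rb2 library (SD, n = 3 each). The model ONT.576 alone took 0.564% ± 0.038 and 0.543% ± 0.0068 of all counts. It held 54.9% of the counts of the 318 models, and the 10 most counted models held 73.7%. Without ONT.576, the other models made up 0.440% ± 0.0063 of a Ctrl library and 0.482% ± 0.00057 of an Rb2 library, with the 3 Rb2 samples above the 3 Ctrl samples. These shares are of raw library size, and they depended on the scaling. On CPM scaled with TMM factors (trimmed mean of M-values), the share without ONT.576 was 0.460% ± 0.016 in Ctrl samples and 0.467% ± 0.0066 in Rb2 samples, and the groups overlapped. On that scale the share of all 318 models was lower in Rb2 on average, at 1.05% ± 0.065 and 0.992% ± 0.020, again with overlap. The median model had 154 counts over the 6 samples, 28 models had at least 1000, and 89 had fewer than 100. A count was present in all 6 samples for 317 models, and none was without counts in a whole group. At the edge of the rule, 3 models had exactly 60 counts, among them ONT.16909 and ONT.17278, and 4 had 59 and were left out, among them ONT.11876 and ONT.17819.

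The models were of moderate length, with a median of 765 bases and a range of 215 to 4667 bases. Models of the type that fell short of 60 counts had a median of 458 bases, and the other new gene models with at least 60 counts, which are not typed as lncRNA, had a median of 228.5 bases. The 118 known lncRNA genes with at least 60 counts had a median of 913.5 bases, and known genes of that count had 2593.5 bases. The transcript table listed 796 transcripts for the 318 models. A single transcript was listed for 89 models, 2 for 126, 3 for 48, and 4 or more for 55, up to 18 for ONT.2173. Single-transcript models were 28% of the set, close to the 29.7% of known lncRNA genes, whereas 92.7% of the other new gene models had 1 transcript. The median length was 613 bases in models with 1 transcript and 914 bases in those with more. Across the 318 models the Spearman correlation between length and number of transcripts was 0.45, given as a description, since models of one library set share its depth and assembly.

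**Figure D1:**
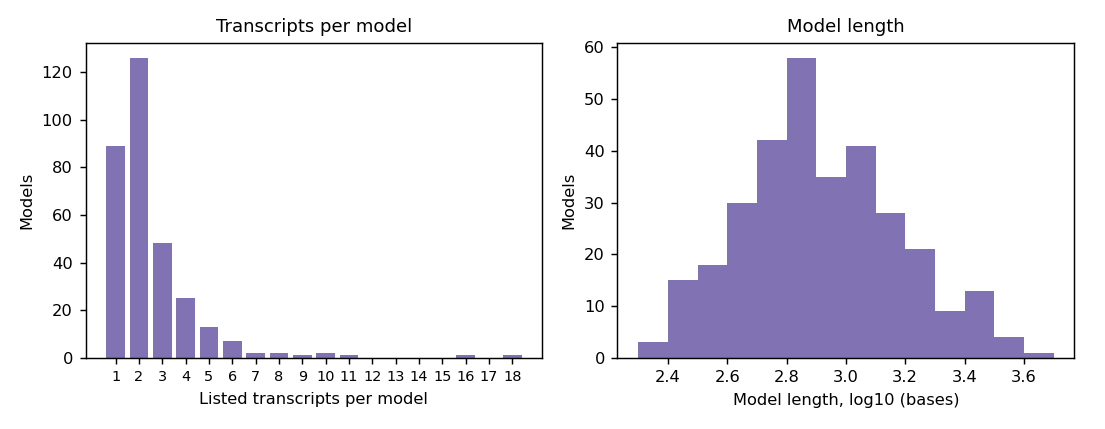
Left, number of models (y) by how many transcripts the transcript table lists for each (x). Right, number of models (y) by model length on a log10 scale in bases (x). A single transcript was listed for 89 of the 318 models, and lengths ran from 215 to 4667 bases.

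In most models that had several transcripts, 1 of them held most of the counts. The leading transcript held a median of 75% of the counts among the 229 models with at least 2 transcripts. It held over 90% in 64 of them and under 50% in 33. In 184 models a second transcript reached 10 counts. In 317 of the 318 models the transcript counts summed to the model count in all 6 samples. The listed model length exceeded the longest listed transcript in 211 models and equalled it in 106, so in the 211 a value per kilobase of model length is lower than per kilobase of the transcript counted.

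The type of the model and the type of its transcripts did not always match. Of the 318 models, 183 listed only transcripts typed as lncRNA, 125 listed both lncRNA and mRNA transcripts, and 10 listed only transcripts typed as mRNA. By counts, transcripts typed as mRNA carried 74.7% of the counts of the set, and 43.9% once ONT.576 was left out. In 78 models they carried most of the counts and in 21 all of them. Among the 28 models with at least 1000 counts, 17 had most counts on mRNA transcripts, as had 19 of the 89 models under 100 counts. In the known lncRNA genes with at least 60 counts, by contrast, 98.6% of the counts lay on transcripts typed as lncRNA. For models such as ONT.576 and ONT.2162, whose listed transcripts are all typed as mRNA, the label lncRNA therefore rests on the gene row alone. Over all 318 models, lncRNA transcripts held 24.9% ± 0.41 of the counts in the Ctrl samples and 25.9% ± 0.39 in the Rb2 samples (SD, n = 3 each), with each Rb2 sample above each Ctrl sample (exact two-sided permutation p = 0.1, the floor for 3 against 3). Without ONT.576 the order of the means was the other way: lncRNA transcripts held 56.9% ± 1.46 of the counts in the Ctrl samples and 55.0% ± 1.16 in the Rb2 samples (SD, n = 3 each), and the 2 groups overlapped.

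**Figure D2:**
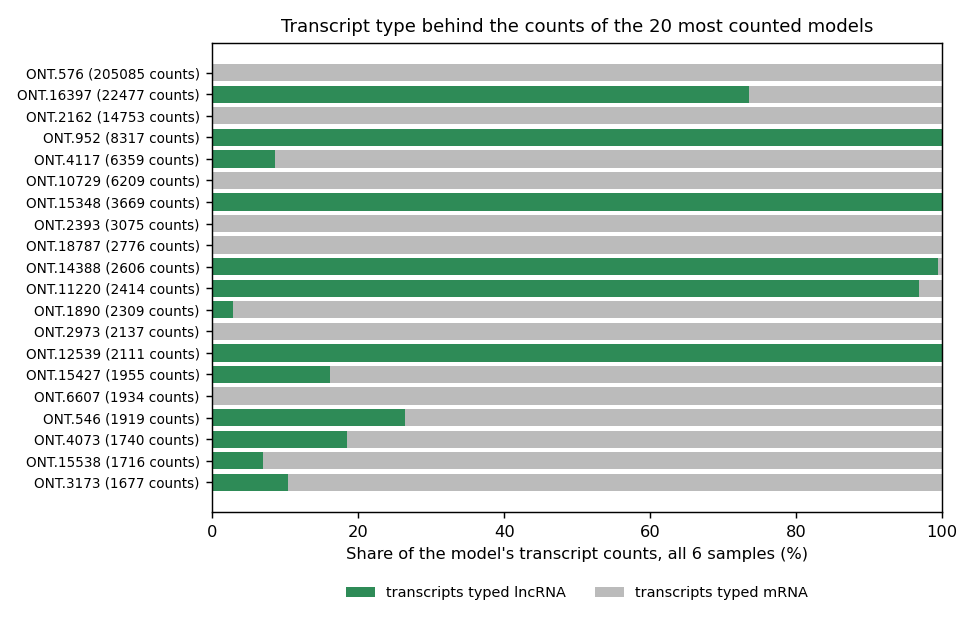
Each bar is 1 of the 20 most counted models (y, with its summed count), split by the share of its transcript counts (x, percent) on transcripts typed lncRNA (green) or mRNA (grey). Transcripts typed mRNA carried most counts in 14 of the 20.

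The most abundant models are described here by their TMM-scaled level. ONT.576, of 2327 bases, was at 6473, 5872 and 5397 CPM in Ctrl replicates 1 to 3 and at 5407, 5186 and 5162 CPM in Rb2 replicates 1 to 3. The lowest Ctrl sample lay just under the highest Rb2 sample, so the groups overlapped. Its log2 fold change of Rb2 over Ctrl was -0.17 (SE 0.081, edgeR adjusted p = 0.276). Of its 8 listed transcripts, ONT.576.2, typed mRNA and 1021 bases long, held 204353 of its 205085 counts. Per kilobase of model length ONT.576 was at 2399 CPM, followed by ONT.4117 at 574 CPM, ONT.15348 at 350 CPM and ONT.2162 at 275 CPM. The median over the models tested was 6.03 CPM per kilobase. It was 8.72 for known lncRNA genes, 5.69 for known genes and 14.3 for other new gene models, all with at least 60 counts. Each class was chosen on counts before division by length, which raises the shorter classes. In that order the median summed counts were 154, 328.5, 538 and 132, so the values per kilobase do not rank the classes by abundance.

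ONT.16397, one of the longest models at 3594 bases, was at 536, 626 and 611 CPM in Ctrl and 694, 653 and 631 CPM in Rb2. Every Rb2 sample was above every Ctrl sample, but the log2 fold change was only 0.16 (SE 0.089, edgeR adjusted p = 0.351). Its leading transcript was typed lncRNA and held 63.8% of its counts. ONT.952, whose 5 transcripts are all typed lncRNA, averaged 222 ± 3.72 CPM in the Ctrl samples and 237 ± 17.7 CPM in the Rb2 samples (SD, n = 3 each), with an edgeR adjusted p of 0.598. ONT.4117, of 306 bases, was at 176 ± 15.0 and 175 ± 9.47 CPM (adjusted p = 0.971). ONT.15348, of 289 bases with a single transcript, was at 105 ± 13.8 and 97.3 ± 5.14 CPM. ONT.18787 listed 16 transcripts and was at 76.7 ± 5.84 and 77.2 ± 5.95 CPM. ONT.15141, with 11 transcripts over 2812 bases, was far less abundant (20.001 ± 3.03 and 19.3 ± 2.53 CPM, edgeR adjusted p = 0.894). ONT.2393 was at 88.2 ± 14.4 and 80.7 ± 17.4 CPM. In these last 5 models the group means differed by less than the spread between replicates.

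A pair of abundant models varied more among replicates. ONT.10729, typed mRNA in all 4 of its transcripts, was at 120, 150 and 179 CPM in Ctrl and 157, 219 and 225 CPM in Rb2. Rb2 replicate 1 lay within the Ctrl range, and the model did not pass (log2 fold change 0.42, SE 0.18, edgeR adjusted p = 0.228). ONT.14388 was at 90.3, 83.7 and 70.6 CPM in Ctrl and 91.1, 41.9 and 44.3 CPM in Rb2. Here too Rb2 replicate 1 was with the Ctrl samples and the other Rb2 samples were apart (log2 fold change -0.46, SE 0.30, adjusted p = 0.430).

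Whether Rb2 and Ctrl differed was asked of each model in a fit across all gene rows. Of the 318 models 300 passed the filter on low counts, and 24 of the 300 reached its level in all 3 samples of Ctrl alone and 20 in all 3 of Rb2 alone. In such models the filter itself favours a difference. With edgeR's quasi-likelihood test, 2 models were called higher and 2 lower in Rb2 at an adjusted p under 0.05. That is 0.667% of the 300 in each direction, where 1.90% of all 11551 gene rows tested were called higher and 0.805% lower. Groups did not overlap in 19 models with Rb2 higher and in 46 with Rb2 lower, which is 6.33% and 15.3% of those tested, against 15.0% and 12.2% of all rows. At an unadjusted p under 0.05 there were 9 higher and 28 lower models, or 3.00% and 9.33%, against 11.8% and 8.17% of all rows. The count of calls in the set was near or under the background in either direction, and it changed with the samples kept. Without Ctrl replicates 1, 2 and 3 in turn, 5, 0 and 2 models were higher and 4, 0 and 3 lower. Without Rb2 replicates 1, 2 and 3 in turn, 1, 0 and 0 were higher and 0 lower, the 1 being ONT.11920, which was not tested with all samples. In the fits with a count of 0, edgeR gave an unadjusted p under 0.05 to 6 to 10 models higher and 16 to 20 lower. Over all rows the same fits called 605, 2, 433, 25, 0 and 1 higher and 291, 13, 211, 14, 3 and 10 lower.

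Among the models tested, ONT.1919 changed most. This model of 786 bases has a single transcript, typed lncRNA, and 165 counts in all. It was at 6.80, 7.05 and 7.34 CPM in Ctrl and at 1.60, 2.25 and 1.10 CPM in Rb2. The Ctrl samples were close together, and the Rb2 samples all lay far below them. The log2 fold change was -2.07 (SE 0.28, edgeR adjusted p = 0.0147). It passed the count filter through Ctrl alone. With Ctrl replicate 2 left out it no longer passed the test (adjusted p = 0.107), nor with Rb2 replicate 1, 2 or 3 left out (adjusted p = 0.0621, 0.0739 and 0.120), at log2 fold changes of -2.36 to -1.86. In bulk RNA, fewer cells with a transcript and less of it per cell cannot be told apart.

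ONT.2173 also fell. It is a short model of 529 bases with 18 listed transcripts, the most of any model here, of which 13 are typed mRNA. It was at 19.4, 20.2 and 13.5 CPM in Ctrl and 8.90, 6.41 and 6.81 CPM in Rb2, so the lowest Ctrl sample was above the highest Rb2 sample. The log2 fold change was -1.26 (SE 0.22, edgeR adjusted p = 0.0311). Its counts moved between transcripts from sample to sample. ONT.2173.2, typed mRNA, held 72, 52 and 24 counts in Ctrl and 0, 24 and 9 in Rb2, whereas ONT.2173.3, typed lncRNA, held 48, 23 and 40 in Ctrl and 44, 0 and 15 in Rb2. Neither transcript passed on its own (edgeR adjusted p = 0.444 and 0.815).

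ONT.2162 rose by a small amount that varied little between replicates. It has 1500 bases and 10 listed transcripts, all typed mRNA. Its level was 333, 341 and 350 CPM in Ctrl and 500, 488 and 459 CPM in Rb2. Both groups were narrow and well apart, with a log2 fold change of 0.50 (SE 0.080, edgeR adjusted p = 0.0232). Below the model level the picture was less even. ONT.2162.1 and ONT.2162.2, of 1265 and 1264 bases, shared nearly all of its counts, and the first held 60.9% ± 20.02 in Ctrl and 71.8% ± 20.2 in Rb2 (SD, n = 3 each; exact two-sided permutation p = 0.5). By sample it held 2304, 928 and 994 counts in Ctrl and 2608, 1976 and 1308 in Rb2, while the second held 437, 959 and 973 and then 171, 840 and 1177. The split thus varied widely within each group while the summed level did not.

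ONT.15427 is the longest model of the set, at 4667 bases, and it rose. It was at 35.7, 29.3 and 45.1 CPM in Ctrl and 64.6, 75.04 and 81.9 CPM in Rb2, with no overlap. The log2 fold change was 1.01 (SE 0.17, edgeR adjusted p = 0.0269). Of its 6 transcripts, the mRNA-typed ONT.15427.1, of 4662 bases, held 83.9% of the counts and the lncRNA-typed ONT.15427.2, of 572 bases, held 14.8%. The shares of the first were 83.1% ± 3.48 in Ctrl and 84.4% ± 3.22 in Rb2 (SD, n = 3 each; exact two-sided permutation p = 0.7). The 2 transcripts had log2 fold changes of 1.03 (SE 0.21, edgeR adjusted p = 0.162) and 0.76 (SE 0.25, adjusted p = 0.263). ONT.2162, ONT.2173 and ONT.15427 lost their calls without the same 4 samples as ONT.1919, with adjusted p between 0.0621 and 0.188. None of the 4 changed direction when any sample was left out.

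**Figure D3:**
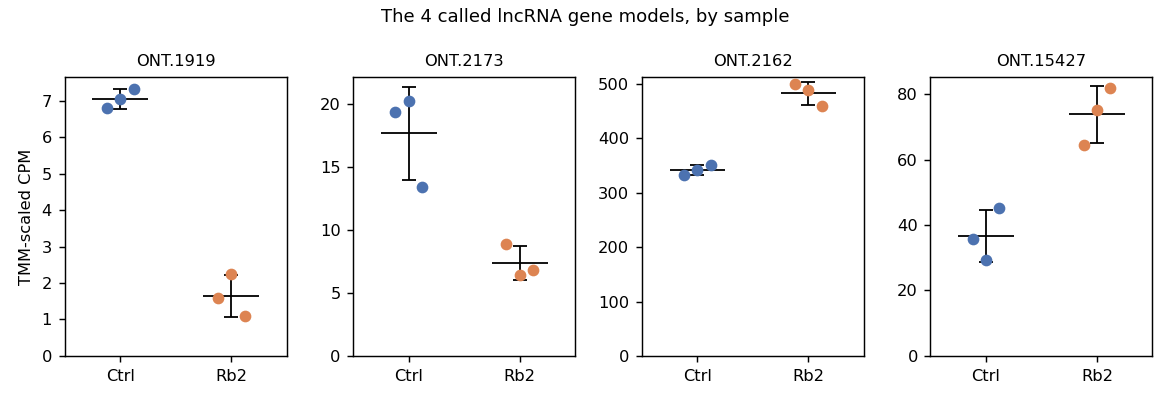
TMM-scaled CPM (y, linear, from 0, a scale of its own in each panel) of the 4 called models in each Ctrl and Rb2 sample (points), with group mean and SD (bars, n = 3). In ONT.1919 and ONT.2173 the Rb2 samples lie below all Ctrl samples, and in ONT.2162 and ONT.15427 above them.

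Among models that did not pass, ONT.6075 and ONT.6607 came nearest. ONT.6075, of 1813 bases and mostly on lncRNA transcripts, was at 4.61, 2.89 and 4.72 CPM in Ctrl and 8.90, 7.28 and 9.38 CPM in Rb2 (log2 fold change 1.05, SE 0.25, edgeR adjusted p = 0.0598). ONT.6607 has 2416 bases and 1 transcript, typed mRNA. Its values were 43.1, 39.9 and 44.9 CPM in Ctrl and 69.2, 74.9 and 51.5 CPM in Rb2 (log2 fold change 0.61, SE 0.15, adjusted p = 0.0650). In both models all Rb2 samples were above all Ctrl samples, and both passed without Ctrl replicate 1 (adjusted p = 0.0206 and 0.0297). Neither passed when any other sample was left out (edgeR adjusted p from 0.0530 to 0.212 and from 0.0585 to 0.289). The next 3 by p with Rb2 higher were ONT.7660 (log2 fold change 1.40), ONT.4579 (0.89) and ONT.9267 (0.48), with adjusted p from 0.0990 to 0.143. ONT.7660, with 94 counts in all and tested through Rb2 alone, also passed without Ctrl replicate 1 (log2 fold change 1.97, adjusted p = 0.0184). It did not pass without any other sample (edgeR adjusted p from 0.134 to 0.369).

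The 5 with Rb2 lower were ONT.4685, ONT.15753, ONT.7296, ONT.14443 and ONT.5844, with log2 fold changes of -1.21, -0.94, -0.55, -1.07 and -0.52 and adjusted p from 0.0919 to 0.115. Of these, ONT.4685, one of the shortest models at 220 bases, averaged 4.06 ± 0.80 CPM in the Ctrl samples and 1.74 ± 0.73 CPM in the Rb2 samples (SD, n = 3 each). It entered the test through Ctrl alone and passed without Ctrl replicate 1 (adjusted p = 0.0388), but not without any other sample (edgeR adjusted p from 0.105 to 0.337). The other shortest models, ONT.14712 and ONT.2206, of 215 and 241 bases, had adjusted p = 0.703 and 0.720. The second longest, ONT.9844 at 3964 bases, averaged 16.3 ± 1.76 CPM in the Ctrl samples and 13.1 ± 0.26 CPM in the Rb2 samples (log2 fold change -0.32, adjusted p = 0.313). A change of at least 2-fold either way was seen in 11 of the 300 models tested, 3 higher and 8 lower, which is 3.67% against 4.59% of all rows tested.

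As a set the models lay slightly on the lower side in Rb2. Their median log2 fold change was -0.13, with quartiles of -0.37 and 0.094, and 203 of 300 (67.7%) were below 0. Over all rows tested the median was -0.016 and 52.0% were below 0. The other new gene models with at least 60 counts had a median of -0.19, the known lncRNA genes -0.010 and the known genes 0.035. Models with most of their counts on lncRNA transcripts (225 tested) had a median of -0.11, and those with most on mRNA transcripts (75 tested) -0.18. Of the 4 calls, 1 and 3 fell in these classes. That is 0.444% and 4% of the models tested in each, against 2.7% of all rows tested. With library size in place of TMM, the median of all rows moved to 0.096 and that of the models to -0.019. Relative to all rows the models lay at -0.12 either way. A change of factors moves all rows about alike, so this difference could hardly change and is no check. It was -0.18 without Ctrl replicate 3 and -0.019 with an offset for length fitted in each library.

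That offset was smaller in the longest models than in the shortest and middle ones, which hardly differed. In other gene types too the longest had the highest median. In the shortest models, from 215 to 626 bases, the median log2 fold change was -0.17 over 98 tested. In those of middle length, from 627 to 1058 bases, it was -0.18 over 100, and in the longest, from 1059 to 4667 bases, -0.055 over 102. Other new gene models in the same 3 length ranges had medians of -0.23, -0.21 and -0.052, and known genes had -0.19, -0.12 and 0.045. Across the 300 models tested, the Spearman correlation of log2 fold change with length was 0.20, a description only, since all values share the same 6 libraries. Both called rises were among the longest models, and the 2 called falls were among the shortest and the middle ones.

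**Figure D4:**
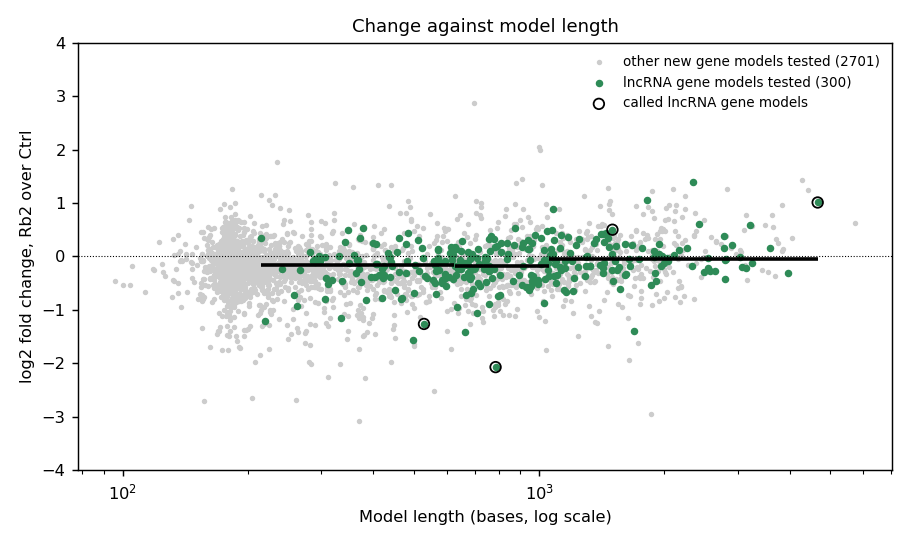
Log2 fold change of Rb2 over Ctrl (y) against model length in bases (x, log scale) for the lncRNA gene models tested (green, 300) and the other new gene models tested (grey, 2701). Rings mark the 4 called models, and black bars are medians of the lncRNA models in the 3 length ranges, at -0.17, -0.18 and -0.055.

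By sample, the median deviation of the models tested from their own mean, on log2 of CPM plus 1, was 0.11, 0.088 and -0.0076 in Ctrl and -0.035, -0.048 and -0.059 in Rb2. Ctrl replicate 3 was nearer to the Rb2 samples than to the other Ctrl samples. Over all rows tested the same medians lay between -0.0020 and 0.010. The mean transcript length behind a count, over the whole library, was 1172, 1174 and 1228 bases in Ctrl and 1244, 1255 and 1252 bases in Rb2. The 2 Ctrl samples with the highest median deviation had the shortest mean transcript length, and Ctrl replicate 3 was again next to the Rb2 samples. Both measures come from the same libraries and are not independent, and a link between them was not tested. An offset for length was also fitted in each library on these same counts, so it takes out a trend with length by construction. With it, the median log2 fold change was -0.060 for the models and -0.041 for all rows, and the same 4 models were called. Without Ctrl replicate 3 the median was -0.18, and without Ctrl replicate 1 it was -0.085.

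**Figure D5:**
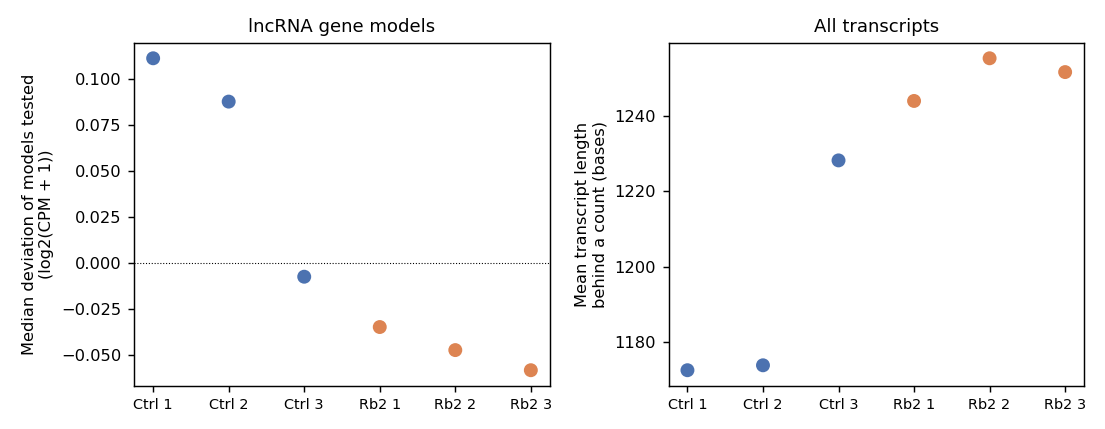
Left, median deviation of the models tested from their mean over samples (y, log2 of CPM plus 1), and right, mean transcript length behind a count over all transcripts (y, bases), for each Ctrl (blue) and Rb2 (orange) sample (x). Ctrl replicates 1 and 2 are highest on the left, at 0.11 and 0.088, and lowest on the right, at 1172 and 1174 bases.

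Replicates of the models were farther apart than those of known lncRNA genes in both groups, and farther apart than those of all rows in Rb2. They were closer together than those of the other new gene models with at least 60 counts. The median coefficient of variation was 18.3% in Ctrl and 15.3% in Rb2 over the models tested, and 19% and 12.1% over all rows tested. It was 14.1% and 11.7% in the known lncRNA genes, and 20.4% and 18.3% in those other new gene models. The known lncRNA genes also had more counts, with a median sum of 328.5 against 154 for the models. The median SE of a log2 fold change was 0.27 for the models and 0.23 for all rows. Of 48 annotated lncRNA genes listed by name, such as Malat1 and H19, only Snhg11 had a row by symbol, with 6 counts, and it was not tested. The others were not analysed here.

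No single transcript of the models passed. Of their 796 transcripts, 380 were tested in a fit over 16679 transcripts, and edgeR called none of them, as it called none of all transcripts tested (0%). At an unadjusted p under 0.05, 9 were higher and 24 lower, or 2.37% and 6.32%, against 7.70% and 6.11% of all transcripts tested. The smallest p was that of ONT.1919.1, the only transcript of its model (log2 fold change -2.08, edgeR adjusted p = 0.0992). ONT.15427.1 and ONT.16397.2 came next. The latter, a lncRNA transcript of 1237 bases, held 348, 237 and 204 counts in Ctrl and 328, 337 and 324 in Rb2 (log2 fold change 0.54, SE 0.12, adjusted p = 0.171). With DESeq2, ONT.15427.1 and ONT.16397.2 were called higher and ONT.1919.1 lower, with adjusted p = 0.00284, 0.0275 and 0.00392. The share of all transcripts that DESeq2 called is not given here, and the 0% above is that of edgeR alone.

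Transcript usage, the share of each transcript within its model, could be tested in 73 of the models. With the Simes p of diffSpliceDGE no model was called and none had an unadjusted p under 0.05, where 0.417% of the 3361 genes tested were called and 3.36% had such a p. With its gene-level test 0 were called too, and 6 of the 73 had an unadjusted p under 0.05. The shares over all genes belong to the Simes p, and none is given for the gene-level test. The 3 models with the smallest p were ONT.3173, ONT.10211 and ONT.4134, and the smallest unadjusted p was 0.0739. In ONT.4134 the lncRNA transcript ONT.4134.3, of 1086 bases, held 16.1% ± 3.20 of the model in Ctrl and 7.12% ± 1.80 in Rb2 (SD, n = 3 each). In ONT.10211 the lncRNA transcript ONT.10211.2 held 0, 7 and 4 counts in Ctrl and 20, 14 and 14 in Rb2, which was 8.83% ± 7.69 and 28.7% ± 7.88 of the model. In ONT.3173 the mRNA transcript ONT.3173.5 held 93.1% ± 5.13 and 85.2% ± 4.74. These 3 were picked for their small p, so their shares are descriptions only. A model was called in 2 of the fits that left out a sample, ONT.19061 without Ctrl replicate 2 and ONT.16397 without Ctrl replicate 3. Their Simes adjusted p were 0.0366 and 0.00773, and no count over all genes is given for those fits.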

How the data were processed

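RNA of 6 H9c2 samples, 3 Ctrl and 3 Rb2, was sequenced by the authors with an mRNA kit for short reads, per the labels' protocols. The deposited count tables hold whole-number counts per gene row and per transcript, with lengths. The deposited CPM table equals count over column total (largest difference 4.9e-11). The submitters' processing notes list HISAT2, DESeq2 and mm10 without saying what each was for; known genes carry rat identifiers, so no coordinates are given. The sources used here give no counter, annotation or tool that built the models. The models' identifiers begin with ONT, so whether reads were long or short is unsettled, which limits values per length and transcript shares. Strand, and how reads shared with overlapping genes or near copies were counted, are likewise not stated, so each model's counts are uncertain where these occur. Of the per-sample columns, 18 in each file match no sample here and were not used.

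Counts were fitted with edgeR 4.0.16 in R 4.3.3 over all rows (TMM, filterByExpr on group with its minimum count of 10, robust quasi-likelihood, group term), adjusted by Benjamini-Hochberg over all rows tested, threshold 0.05. SE is the fold change over the root of its F statistic. Transcript usage used diffSpliceDGE (Simes p, with its gene-level test as an alternative). The alternatives used other factors, filters, DESeq2 1.42.0, limma 3.58.1 (voom, and log2 of the deposited CPM plus 1 or 0.1), a loess length offset (span 0.5), a replicate block, other summed counts (30 and 120), a threshold of 0.01, and each sample left out. Fits were tested on simulated data. The members, lists and alternatives were chosen with earlier results of these data known. Named models are all called ones, the 10 most abundant, the 5 of smallest p each way not called, the 3 longest and 3 shortest, those with most transcripts, the 3 with the smallest usage p, and those at the edge of the rule; others were chosen after their values were seen.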

Additional observations from a re-analysis of the deposited data

How the results depend on the processing

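The counts of 2 higher and 2 lower models stayed within 1.5 times with RLE or upper-quartile factors, a filter at 1 CPM, limma-voom, the length offset, and other summed counts; DESeq2 gave 3 and 2. Library size only, no filter, and limma on the log2 deposited CPM (plus 1 or 0.1) each gave 4 higher and 2 lower. Over all rows the main fit called 219 higher and 93 lower, and DESeq2 called 313 and 96. RLE and upper-quartile factors called 183 and 135 of all rows higher and 87 and 92 lower. The filter at 1 CPM, limma-voom and the length offset called 180, 185 and 135 higher and 88, 74 and 114 lower. The fits with 4 higher models called 463, 386, 514 and 480 of all rows higher and 80, 150, 87 and 79 lower. The calls among the models thus rose where the calls of all rows higher in Rb2 rose. An edgeR adjusted p under 0.01 left 0 and 0 (9 and 28 at an unadjusted p under 0.05), with no count over all rows given at 0.01. Models with lncRNA transcripts only were an alternative added after seeing the data. Of these, 0 were higher and 1 lower (4 and 12 at an unadjusted p under 0.05). The length offset without Ctrl replicate 1, also added, gave 5 and 4 (451 and 574 over all rows). The replicate block gave 1 and 1 (12 and 21 over all rows). With the length offset as well it gave 0 and 0 (14 and 13 at an unadjusted p under 0.05), and 2 and 14 over all rows. No label says whether same-numbered samples were handled together. Correlations of their deviations were -0.067, -0.061 and -0.0067, and no sample correlated best with its own. Over all pairs of Ctrl and Rb2 samples the correlations ran only from -0.12 to 0.16, so they cannot settle whether samples were paired. Leaving out 1 sample gave 0 to 5 higher and 0 to 4 lower models, a median log2 fold change of -0.18 to -0.085, a difference in count share of 0.0047 to 0.040 percentage points, and 0 to 1 models with called usage. The median was -0.18 with upper-quartile factors, -0.019 with library size, -0.012 and -0.014 on the deposited CPM plus 1 and 0.1, -0.060 with the length offset, -0.062 with offset and block, and -0.066 with the offset without Ctrl replicate 1. With TMM-scaled CPM in place of library size, added after seeing the data, the difference in count share was -0.060 percentage points, against 0.021. DESeq2 called 2 transcripts higher and 1 lower, with no count over all transcripts given here. The cause was not tested. Of 19 alternatives, ONT.1919 and ONT.15427 kept their calls in 14 and ONT.2162 and ONT.2173 in 13, with no change of direction. Models under the filter were imprecise in the fit without a filter, where ONT.3896, with 68 counts, had an SE of 0.42 on log2. The SE did not follow the counts alone: it was 2.29 for ONT.7799, with 105 counts, and 1.17 for ONT.11920, with 213.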

Other observations

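Some models differed more between replicates than between groups; they were chosen after their values were seen. Taking no sample below 3 counts, the highest sample of a group was over 5-fold above the lowest in 6 models in Ctrl and in 2 in Rb2. In all 6 of the Ctrl cases the highest sample was Ctrl replicate 1 and the lowest Ctrl replicate 3. ONT.7799, of 295 bases, held 97, 4 and 2 counts in Ctrl and 0, 1 and 1 in Rb2, so nearly all of its 105 counts came from 1 library. ONT.745, of 1613 bases, was at 6.31, 1.81 and 0.35 CPM in Ctrl and 4.09, 2.43 and 0.74 CPM in Rb2. ONT.315 was at 44.3, 10.3 and 6.47 CPM in Ctrl and 8.19, 8.67 and 6.62 CPM in Rb2.

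ONT.11920, of 533 bases with a single lncRNA transcript, stood apart in 2 Rb2 samples. It held 9, 6 and 8 counts in Ctrl and 7, 63 and 120 in Rb2, or 1.09, 1.08 and 1.40 CPM against 1.25, 10.9 and 22.1 CPM. Rb2 replicate 1 was at the Ctrl level. The model did not pass the filter with all 6 samples. Without a filter its log2 fold change was 3.27 (SE 1.17, edgeR adjusted p = 0.350). It was called without Rb2 replicate 1, but that fit leaves out the Rb2 sample at the Ctrl level and admits the model through Rb2 alone, so the call follows from the omission.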
